A study of Homo sapiens with 18 samples.

Results

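Chromatin remodelers and histone methylation enzymes were followed as a set of 70 genes in LNCaP cells, a line derived from human prostate cancer that responds to androgens, after chemical inhibition or knockdown of PARP1 and PARP2. The members are all genes whose symbol begins with KDM1 to KDM8, KMT2 to KMT5, SMARC, CHD1 to CHD9, SETD, EZH, ARID1, ARID2 or BRD1 to BRD9, with Y-linked genes (1 was left out) and pseudogene or antisense names excluded. They are 70 of the 22027 features listed in either expression table, and all 70 are listed in both. The rule uses symbols and no measured value, but it was set with earlier results of these data known. In the inhibitor table KMT5A is listed as SETD8, KMT5B as SUV420H1 and KMT5C as SUV420H2.

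RNA-seq was run on 18 libraries in 9 groups of 2, which the submitters describe as biological duplicates; p-values measure the spread between these libraries. In the inhibitor experiment cells received 10 uM UPF1069, 10 uM olaparib, 10 uM veliparib or the vehicle DMSO for 24 h. For the knockdowns, transfection lasted 72 h and used siPARP1_A, siPARP1_B, siPARP2_A, siPARP2_B or the control siRNA siNC. All cells were grown in RPMI medium with 10% FBS and come from 1 cell line, and no group combines a compound with an siRNA.

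At DNA breaks, PARP1 and PARP2 add poly(ADP-ribose) chains to proteins, histones among them. Remodelers such as SWI/SNF, ISWI and the CHD proteins use ATP to slide or evict nucleosomes, and CHD1L (ALC1) is switched on by binding poly(ADP-ribose). SET-domain enzymes write methyl groups on histone lysines, KDM enzymes erase them, and bromodomain proteins read acetylated lysines. In prostate cancer cells several of these proteins, including KDM1A, EZH2 and the SWI/SNF ATPases, act with the androgen receptor or at its target genes.

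Expression with the compounds is given as counts per M reads (CPM), and expression with the siRNAs as a signal normalised per M reads, called normalised reads here. Depth, recovered from the values, was between 26.4 and 35.7 M reads in libraries with compounds and between 15.5 and 18.6 M in those with siRNAs. A log2 fold change is a difference of mean log2(value + 1), which understates changes of low genes, and a gene was called at a Benjamini-Hochberg adjusted p below 0.05 in limma over all genes tested. With 2 libraries per group, the error given is that of the fit. PARP1 was at 4.78 and 5.67 normalised reads with siPARP1_A and 8.99 and 9.05 with siPARP1_B, against 452 and 479 with siNC. PARP2 was at 3.06 and 2.56 with siPARP2_A and 1.78 and 1.01 with siPARP2_B, against 28.96 and 25.8 with siNC. The siPARP2_B libraries also had less PARP1, at 160.5 and 145 (log2 fold change -1.60). All 8 luminal prostate markers were present in both tables, summing to at least 2360 CPM and 1579 normalised reads. Of 5 leukocyte markers, the 2 listed with compounds summed to at most 0.214 CPM. The 1 listed with siRNAs reached at most 0.313 normalised reads. The 1 basal marker listed reached at most 0.929 CPM and 0.574 normalised reads. With compounds, 3 stroma markers summed to 13.4 to 18.1 CPM. The 1 endothelial marker listed lay at 5.39 to 11.3 CPM, and the 1 neuroendocrine marker at 1.55 to 3.15. With siRNAs these sets were at 1.94 to 9.19, 0.967 to 8.51 and 0.875 to 3.86 normalised reads.

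A filter on the mean (at least 1) left 69 of the 70 members for the compounds and 68 for the siRNAs. SMARCA1, an ISWI ATPase, lay at 0.31 to 0.69 CPM and at 0.12 to 1.53 normalised reads and was not tested in either table. CHD5 was tested with the compounds only, since it lay at 0.34 to 1.41 normalised reads. Per kb of the longest transcript, the SWI/SNF subunit SMARCD2 had the highest level among members in both control groups, 97.1 CPM per kb with DMSO and 86.8 normalised reads per kb with siNC. SETD7 was next, at 60.0 CPM per kb with DMSO and 80.6 normalised reads per kb with siNC.

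Members moved in both directions with every compound and siRNA. With UPF1069, 2 rose and 11 fell of 69 members tested, where 10.3% rose and 14.0% fell of all genes. That balance differed between methods, as edgeR gave 5 up and 7 down with TMM scaling and 5 up and 6 down with RLE, and limma without 1 library gave 1 up and 5 to 6 down. With olaparib 17 rose and 19 fell, and of all genes 25.8% rose and 26.8% fell. With veliparib 25 rose and 13 fell, and of all genes 17.2% rose and 23.2% fell; the veliparib calls followed GC content, as set out further on. DESeq2 gave 24 up and 7 down with veliparib, and limma gave 19 up and 7 down without DMSO replicate 1 and 15 up and 11 down without DMSO replicate 2. Of 68 members, 10 rose and 32 fell with siPARP1_A (all genes, 25.5% rose and 28.9% fell) and 8 rose and 13 fell with siPARP1_B (all genes, 16.4% rose and 23.9% fell). For siPARP1_B edgeR gave 10 up and 10 down, and leaving out siPARP1_B replicate 2 gave 3 up and 11 down, while for siPARP1_A leaving out siNC replicate 1 gave 5 up and 29 down. With siPARP2_A 6 rose and 35 fell (all genes, 24.5% rose and 24.9% fell), and with siPARP2_B 12 rose and 28 fell (all genes, 30.9% rose and 35.2% fell).

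With siPARP2_A, the members' median log2 fold change was -0.22 where that of all genes was 0.00. The corresponding medians were -0.19 and -0.01 with siPARP1_A, -0.15 and -0.03 with siPARP2_B, and -0.03 and -0.03 with siPARP1_B. Without siPARP2_B replicate 2 the siPARP2_B median was -0.07, and that of siPARP1_B was -0.07 to 0.01 without 1 library. After GC and length correction the siPARP2_A median was -0.16, with 9 of 68 members up and 28 down. The median of all genes was then -0.0009. In genes below 45%, from 45 to 55% and at 55% GC or more, 27.0, 25.3 and 22.6% rose and 27.5, 25.4 and 23.0% fell. As deposited, Spearman's rho between transcript length and the siPARP2_A change was -0.42 over members and -0.21 over all genes. The part of length in the siPARP2_A median was not tested further. In the inhibitor table the members' medians were -0.05 with UPF1069, -0.03 with olaparib and 0.08 with veliparib, with all-gene medians of -0.02, 0.00 and 0.00. The veliparib median became 0.01 after GC and length correction, 0.04 without veliparib replicate 2 and 0.05 without DMSO replicate 2. The members that were not called lay between -0.25 and 0.17 with UPF1069 and between -0.20 and 0.08 with olaparib. The largest uncalled range in a comparison with siNC was -0.46 to 0.37, with siPARP1_B. The 3 compound comparisons share their DMSO libraries, and the 4 siRNA comparisons share their siNC libraries, so values of a gene in several of them are given side by side.

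**Figure D1:**
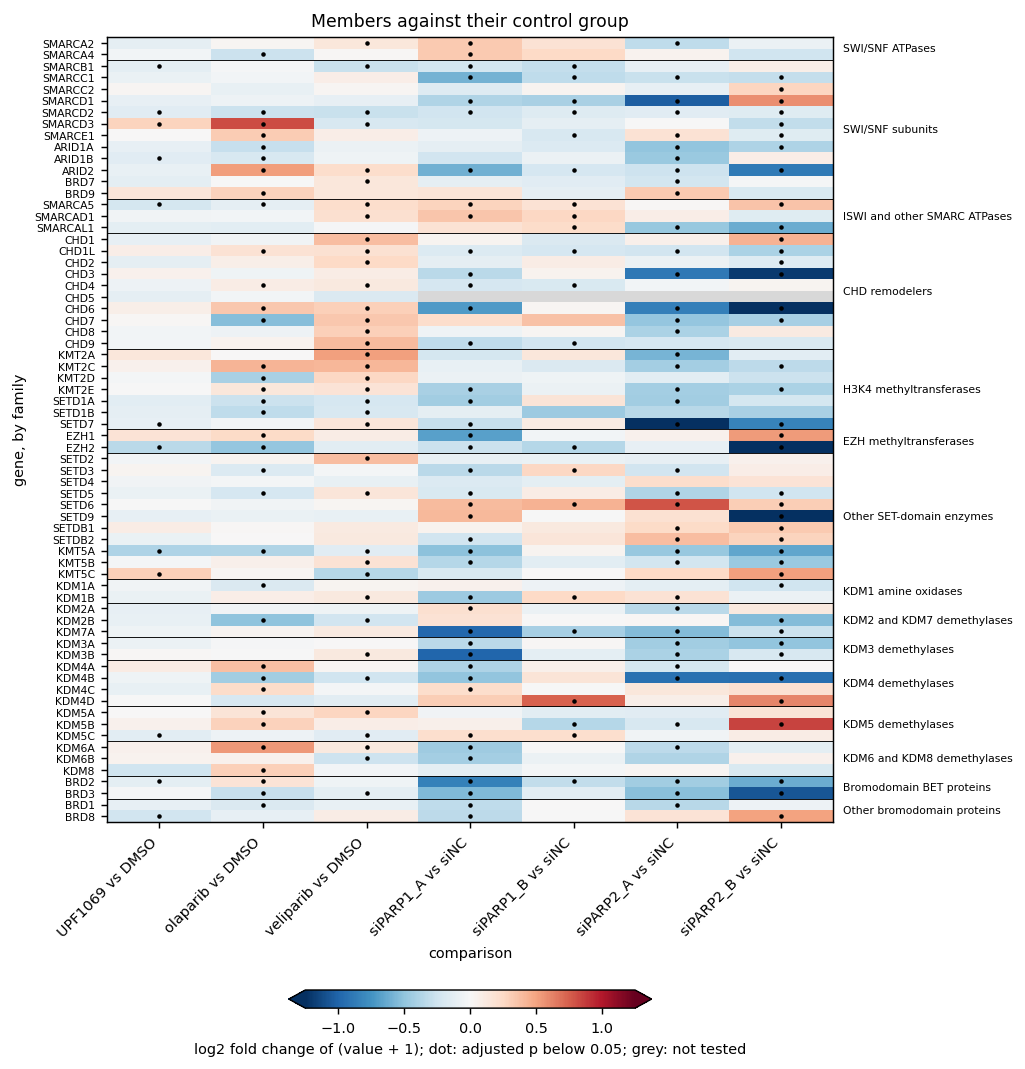
Log2 fold change of 68 of the 69 members tested (rows, by family) in the 7 comparisons with a control group (columns). Blue is lower and red is higher than the control group, a dot marks an adjusted p below 0.05, and grey marks a member that was not tested. Columns hold members of both colours, and blue cells with dots are most frequent with siPARP1_A and siPARP2_A.

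The EZH methyltransferases write the repressive mark H3K27 methylation as alternative catalytic subunits of PRC2, EZH2 mainly in dividing cells. EZH2 was at 36.98 and 34.3 CPM with UPF1069, 32.4 and 31.5 with olaparib and 42.02 and 40.3 with veliparib, against 46.3 and 44.1 with DMSO. Both libraries of each compound lay below both DMSO libraries. EZH2 fell with UPF1069 (log2 fold change -0.34, SE 0.0546, adjusted p = 9.66e-05) and with olaparib (-0.49, SE 0.0546, adjusted p = 1.21e-07), while the veliparib difference of -0.13 did not pass (adjusted p = 0.0564). In the knockdown experiment EZH2 was at 28.7 and 29.5 normalised reads with siPARP1_A, 28.7 and 26.04 with siPARP1_B, 33.6 and 31.8 with siPARP2_A and 12.4 and 11.8 with siPARP2_B, against 34.7 and 35.6 with siNC. All siRNA libraries lay below the siNC libraries, with siPARP2_B far below the others. EZH2 fell with siPARP2_B (-1.47, SE 0.0851, adjusted p = 1.06e-13) and siPARP1_B (-0.35, SE 0.0851, adjusted p = 0.00187), and the siPARP2_A difference of -0.10 did not pass. The call with siPARP1_A (-0.26) was lost without siNC replicate 2 (adjusted p = 0.0565), without siPARP1_A replicate 1 (0.068) and in DESeq2 (0.0539).

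EZH1, its paralog, was at 22.98 and 21.9 CPM with UPF1069, 22.2 and 25.2 with olaparib and 19.97 and 22.5 with veliparib, against 19.7 and 19.97 with DMSO. All compound libraries lay above the DMSO libraries, and the olaparib increase passed (0.24, adjusted p = 0.00645), although not without olaparib replicate 2 (adjusted p = 0.157). In the siRNA table EZH1 was at 6.41 and 7.58 normalised reads with siPARP1_A, 11.9 and 10.98 with siPARP1_B, 12.5 and 11.9 with siPARP2_A and 18.97 and 15.9 with siPARP2_B, against 11.5 and 12.002 with siNC. It fell with siPARP1_A (-0.68, SE 0.12, adjusted p = 2.61e-05) and rose with siPARP2_B (0.53, SE 0.12, adjusted p = 0.000305), and neither set overlapped the siNC libraries. On the per-kb scale EZH2 made up 45.3 and 48.5% of the summed EZH1 and EZH2 signal in the siPARP2_B libraries, against 79.3 and 79.02% in the siNC libraries. In the inhibitor table that share was 64.95 and 61.4% with olaparib, against 74.9 and 73.7% with DMSO.

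Of 18 markers of proliferating cells fixed as a context list, 2 rose and 9 fell with UPF1069 (median -0.17), 0 rose and 18 fell with olaparib (-0.83) and 2 rose and 6 fell with veliparib (-0.02). With siRNAs, 4 rose and 9 fell with siPARP1_A (median -0.27), 2 rose and 5 fell with siPARP1_B (-0.07), 7 rose and 2 fell with siPARP2_A (0.13) and 0 rose and 18 fell with siPARP2_B (-1.93). All 18 were lower in the olaparib and siPARP2_B comparisons, where EZH2 changed most. EZH2 was also called lower with UPF1069, siPARP1_A and siPARP1_B, where 9, 9 and 5 of the 18 fell and 2, 4 and 2 rose. TOP2A, the topoisomerase of dividing cells, changed by -3.996 with siPARP2_B, and MKI67 by -1.57 with olaparib. Their part in the EZH2 result was not tested, and in bulk RNA fewer dividing cells and less RNA per cell cannot be told apart.

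KMT5A, which writes H4K20 monomethylation and is known for its role in the cell cycle, was at 65.7 and 63.5 CPM with UPF1069, 64.1 and 65.8 with olaparib and 78.2 and 75.2 with veliparib, against 85.3 and 84.3 with DMSO. The UPF1069 and olaparib libraries lay below both other groups. It fell with UPF1069 (-0.39, SE 0.0441, adjusted p = 9.13e-07) and olaparib (-0.38, SE 0.0441, adjusted p = 2.04e-07). The veliparib call (-0.14) was lost after GC and length correction (-0.10, adjusted p = 0.0578), in DESeq2 (0.063) and without DMSO replicate 1 (0.101) or 2 (0.0605). Among siRNA libraries KMT5A was at 61.9 and 62.5 normalised reads with siPARP1_A, 91.1 and 91.9 with siPARP1_B, 64.6 and 63.8 with siPARP2_A and 57.2 and 56.2 with siPARP2_B, against 87.1 and 91.8 with siNC. It fell with siPARP1_A (-0.52), siPARP2_A (-0.47) and siPARP2_B (-0.65), whose libraries lay below the siNC libraries, and the siPARP1_B difference of 0.03 did not pass.

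The promoters of EZH2 and EZH1 are shown because these genes moved in opposite directions with olaparib and siPARP2_B. That of KMT5A is shown because KMT5A fell beside EZH2 with UPF1069, olaparib and siPARP2_B. With siPARP2_A only KMT5A was called, and with siPARP1_B only EZH2. With siPARP1_A, EZH2, EZH1 and KMT5A were all called lower, although the EZH2 call was lost in some alternatives. The promoter sequences run from 250 bases before to 50 bases after the RefSeq start (GRCh38.p14), in the direction of the gene. Capitals mark matches, on either strand, to a CCAAT box (CCAAT) or to an E2F motif (TTTCCCGC, TTTGGCGC, TTTCGCGC or TTTGCCGC); no 2 of the marked matches overlap.
EZH2, chr7:148884242-148884541, minus strand: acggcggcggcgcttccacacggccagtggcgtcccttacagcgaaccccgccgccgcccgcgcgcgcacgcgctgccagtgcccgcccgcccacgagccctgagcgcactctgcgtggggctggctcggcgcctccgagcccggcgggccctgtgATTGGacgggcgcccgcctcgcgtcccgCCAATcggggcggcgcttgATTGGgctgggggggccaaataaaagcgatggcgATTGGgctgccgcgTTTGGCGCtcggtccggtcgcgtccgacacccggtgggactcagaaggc
EZH1, chr17:42744991-42745290, minus strand: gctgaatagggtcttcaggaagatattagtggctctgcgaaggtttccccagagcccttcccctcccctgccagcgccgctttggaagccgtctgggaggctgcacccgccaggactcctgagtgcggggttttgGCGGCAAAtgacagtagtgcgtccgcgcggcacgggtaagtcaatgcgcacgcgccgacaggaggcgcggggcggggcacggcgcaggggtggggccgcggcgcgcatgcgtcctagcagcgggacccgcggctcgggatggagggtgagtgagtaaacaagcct
KMT5A, chr12:123383882-123384181, plus strand: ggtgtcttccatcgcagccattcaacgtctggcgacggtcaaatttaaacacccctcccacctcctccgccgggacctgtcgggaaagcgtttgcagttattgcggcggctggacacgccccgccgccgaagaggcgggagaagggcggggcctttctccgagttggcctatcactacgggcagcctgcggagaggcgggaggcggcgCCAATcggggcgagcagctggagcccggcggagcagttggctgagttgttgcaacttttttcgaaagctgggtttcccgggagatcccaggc
EZH2 holds 4 CCAAT boxes and 1 E2F match, EZH1 holds 1 E2F match and no CCAAT box, and KMT5A holds 1 CCAAT box and no E2F match in this window. An E2F match was found in 3.31% of 35116 RefSeq promoters of this length and in 4 of the 62 members with a promoter there. A CCAAT box was found in 34.6% of promoters and in 19 of the 62 members, and the cell-cycle element TTTGAA in 15.2% of promoters and in 2 of the 62. A match describes these letters and is not evidence of binding.

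The family listed as H3K4 methyltransferases held KMT2A, KMT2C, KMT2D, KMT2E, SETD1A, SETD1B and SETD7, and the enzyme activity of each was not measured. No member of this family rose with any siRNA. Of the 7, 5 fell with siPARP2_A (median -0.42), 3 with siPARP1_A, 3 with siPARP2_B and 0 with siPARP1_B, where 24.9% of all genes fell with siPARP2_A, 28.9% with siPARP1_A, 35.2% with siPARP2_B and 23.9% with siPARP1_B. SETD7, which monomethylates H3K4 and non-histone proteins, was at 493 and 481 normalised reads with siPARP1_A, 608 and 666 with siPARP1_B, 234 and 229 with siPARP2_A and 343 and 321 with siPARP2_B, against 604 and 583 with siNC. Both siPARP2 sequences lay below every other group. SETD7 fell with siPARP2_A (-1.36, SE 0.0569, adjusted p = 1.07e-15), siPARP2_B (-0.84, SE 0.0569, adjusted p = 2.17e-12) and siPARP1_A (-0.28), and the siPARP1_B difference of 0.10 did not pass. In the inhibitor table SETD7 was at 412 and 412 CPM with UPF1069, 426 and 439 with olaparib and 499.7 and 479 with veliparib, against 441 and 443 with DMSO. The veliparib libraries were highest (0.15, and 0.00 after GC and length correction, adjusted p = 0.991). The UPF1069 call (-0.10) was lost on leaving out any 1 of the 4 libraries compared (adjusted p = 0.177 to 0.221) and in edgeR and DESeq2.

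KMT2A, the MLL1 enzyme, was at 42.3 and 42.7 CPM with UPF1069, 38.1 and 38.9 with olaparib and 53.5 and 56.9 with veliparib, against 39.8 and 37.1 with DMSO. The veliparib libraries lay above all others (0.51, SE 0.0524, adjusted p = 1.18e-07), and the increase passed after GC and length correction (0.29, adjusted p = 1.79e-05). With siRNAs KMT2A was at 16.5 and 15.6 normalised reads with siPARP1_A, 19.2 and 22.8 with siPARP1_B, 13.7 and 10.9 with siPARP2_A and 18.7 and 15.7 with siPARP2_B, against 18.8 and 18.95 with siNC, and it fell with siPARP2_A (-0.58), whose libraries lay below both siNC libraries. KMT2C, which acts at enhancers, was at 54.03 and 51.9 CPM with UPF1069, 68.3 and 69.4 with olaparib and 66.7 and 70.2 with veliparib, against 52.4 and 49.5 with DMSO. It rose with olaparib (0.43) and veliparib (0.42; 0.17 after correction), and neither overlapped DMSO. Its close relative KMT2D went the other way with olaparib, at 33.1 and 26.5 CPM against 40.7 and 38.6 with DMSO (-0.41).

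Among the other SET-domain enzymes, SETD6, which methylates the NF-kB subunit RELA, was the 1 member of its family that rose with all 4 siRNAs. It was at 21.2 and 19.3 normalised reads with siPARP1_A, 19.4 and 22.4 with siPARP1_B, 26.7 and 27.2 with siPARP2_A and 19.7 and 18.3 with siPARP2_B, against 14.6 and 15.8 with siNC. All knockdown libraries lay above both siNC libraries, with log2 fold changes of 0.39 for siPARP1_A, 0.43 for siPARP1_B, 0.79 for siPARP2_A and 0.31 for siPARP2_B. The siPARP2_B call was lost without siNC replicate 1 (adjusted p = 0.0659) or siPARP2_B replicate 1 (0.0647). With the compounds SETD6 ranged from 28.2 to 30.0 CPM over the 8 libraries, and none of its 3 differences passed. SETD9 was at 12.9 and 12.996 normalised reads with siPARP1_A, 8.99 and 10.02 with siPARP1_B, 10.5 and 11.6 with siPARP2_A and 2.20 and 2.54 with siPARP2_B, against 9.42 and 9.70 with siNC. The siPARP2_B libraries stood far below the rest (-1.65, SE 0.12, adjusted p = 1.04e-11), and SETD9 rose with siPARP1_A (0.40). SETD2, the enzyme of H3K36 trimethylation, was at 45.2 and 47.2 CPM with veliparib, against 35.6 and 34.8 with DMSO (0.38, and 0.21 after correction). KMT5C, which writes H4K20 trimethylation, was at 13.7 and 13.3 CPM with UPF1069, 10.5 and 11.5 with olaparib and 8.003 and 8.45 with veliparib, against 10.7 and 10.9 with DMSO. It was higher with UPF1069 (0.29), a call lost without DMSO replicate 1 (adjusted p = 0.0743) or UPF1069 replicate 1 (0.0857).

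KDM1A (LSD1), which removes H3K4 mono- and dimethylation and is a cofactor of the androgen receptor, was at 92.2 and 96.6 CPM with UPF1069, 85.3 and 86.5 with olaparib and 98.5 and 100.4 with veliparib, against 95.8 and 99.01 with DMSO. Only the olaparib decrease passed among the compounds (-0.18, adjusted p = 0.00114), and its libraries lay below all others. Among siRNA libraries KDM1A was at 81.7 and 81.6 normalised reads with siPARP1_A, 71.5 and 78.8 with siPARP1_B, 70.5 and 73.7 with siPARP2_A and 65.5 and 66.6 with siPARP2_B, against 78.6 and 78.4 with siNC. It fell with siPARP2_B (-0.25); the other 3 differences, between -0.12 and 0.06, did not pass. KDM2B, an H3K36 demethylase that binds unmethylated CpG islands, was at 26.8 and 26.1 CPM with olaparib, against 38.03 and 37.7 with DMSO (-0.50, SE 0.0561, adjusted p = 1.21e-07), with no overlap.

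KDM7A and KDM3B, which remove H3K9 methylation, had the largest decreases among members with siPARP1_A. KDM7A was at 26.1 and 25.8 normalised reads with siPARP1_A, 36.4 and 41.9 with siPARP1_B, 36.6 and 34.5 with siPARP2_A and 43.7 and 42.7 with siPARP2_B, against 51.5 and 53.2 with siNC. Every knockdown group lay below siNC, and all 4 decreases passed: -0.98 with siPARP1_A, -0.41 with siPARP1_B, -0.55 with siPARP2_A and -0.27 with siPARP2_B. KDM3B was at 28.8 and 29.8 normalised reads with siPARP1_A, 53.5 and 55.2 with siPARP1_B, 48.1 and 42.02 with siPARP2_A and 56.3 and 47.3 with siPARP2_B, against 58.8 and 59.8 with siNC. The siPARP1_A libraries had less than any other (-0.99, SE 0.0819, adjusted p = 2.05e-10), and siPARP1_B did not pass (-0.12). None of the compounds moved KDM7A past the threshold.

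KDM4B, a demethylase of H3K9 and a known androgen receptor cofactor, was at 114 and 111 CPM with UPF1069, 86.2 and 85.01 with olaparib and 95.3 and 99.7 with veliparib, against 118 and 115 with DMSO. Olaparib (-0.44) and veliparib (-0.25; -0.06 and no longer called after correction, adjusted p = 0.209) lay below the other 2 groups. After knockdown it was at 37.4 and 38.4 normalised reads with siPARP1_A, 62.7 and 58.03 with siPARP1_B, 31.6 and 24.6 with siPARP2_A and 25.2 and 30.4 with siPARP2_B, against 51.04 and 56.9 with siNC. It fell with both siPARP2 sequences (-0.93 with siPARP2_A, -0.94 with siPARP2_B) and with siPARP1_A (-0.50). KDM4D was low, at 2.20 and 3.18 normalised reads with siPARP1_B against 1.30 and 1.09 with siNC; the increase (0.74) was lost without siPARP1_B replicate 2 (adjusted p = 0.0828).

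KDM5B, an H3K4 demethylase that is often high in prostate tumours, was at 126 and 116 normalised reads with siPARP1_A, 86.3 and 93.6 with siPARP1_B, 98.2 and 102 with siPARP2_A and 203 and 214 with siPARP2_B, against 120.3 and 111 with siNC. The siPARP2_B libraries stood well above the others (0.85, SE 0.0645, adjusted p = 1.94e-11), whereas KDM5B was lower with siPARP1_B (-0.36). The siPARP2_A call (-0.20) was lost without siNC replicate 1 (adjusted p = 0.134), without siPARP2_A replicate 1 (0.0939) and after GC and length correction (0.38). With compounds KDM5B was at 113 and 113 CPM with UPF1069, 132 and 133 with olaparib and 114 and 116 with veliparib, against 111 and 105 with DMSO, and it rose with olaparib (0.29). Its libraries with olaparib lay above all other inhibitor libraries.

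The H3K27 demethylase KDM6A (UTX) was at 209.8 and 211 CPM with UPF1069, 293 and 298 with olaparib and 220.2 and 222 with veliparib, against 206 and 199 with DMSO. Olaparib stood apart from the rest (0.54, SE 0.0365, adjusted p = 2.90e-11), in the direction opposite to EZH2. The small veliparib increase (0.13) was lost after GC and length correction (0.00, adjusted p = 0.95). KDM6B, the inducible H3K27 demethylase, was at 51.5 and 53.2 CPM with UPF1069, 52.6 and 52.8 with olaparib and 41.9 and 42.5 with veliparib, against 52.4 and 49.3 with DMSO. It was lower with veliparib (-0.26), a call that was lost after GC and length correction (-0.06, adjusted p = 0.35). In the siRNA table KDM6B was at 2.42 and 2.61 normalised reads with siPARP1_A, 3.20 and 3.80 with siPARP1_B, 3.24 and 2.13 with siPARP2_A and 3.81 and 4.001 with siPARP2_B, against 3.38 and 4.08 with siNC. The siPARP1_A call (-0.42) was lost without siNC replicate 2 (adjusted p = 0.207), without siPARP1_A replicate 1 (0.133) or 2 (0.0693) and in DESeq2 (0.16).

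**Figure D2:**
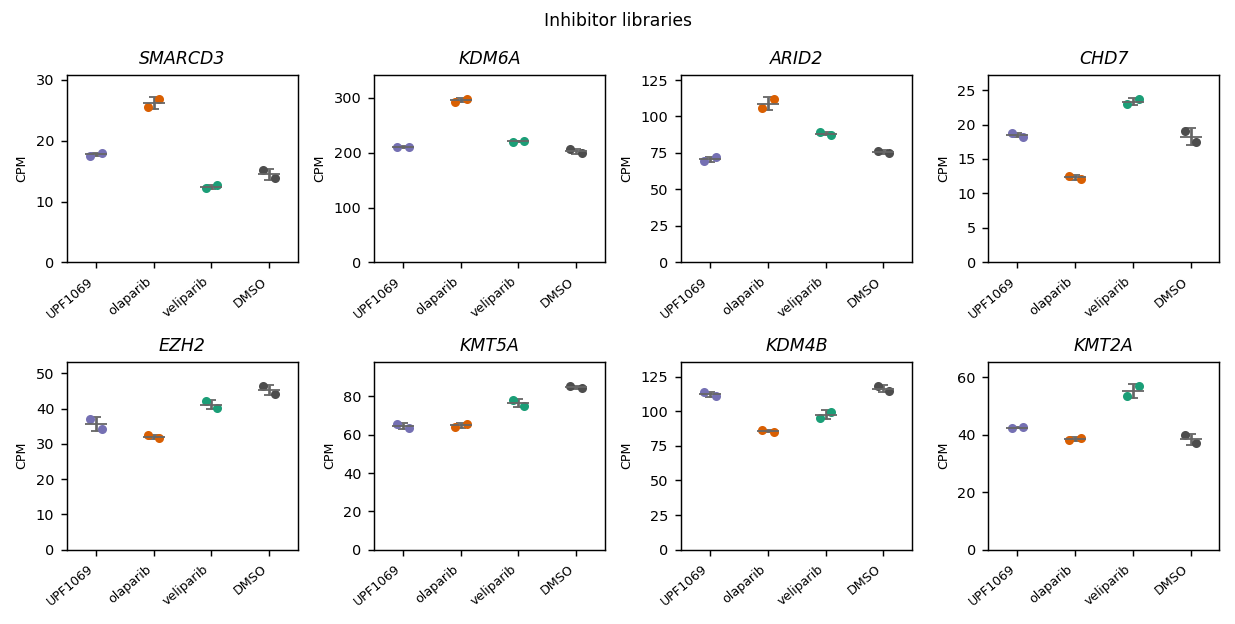
CPM of 8 members in each inhibitor library (points), with the mean and SD of the 2 libraries of a group (grey bars), for UPF1069, olaparib, veliparib and DMSO from left to right. SMARCD3, KDM6A and ARID2 are highest with olaparib, CHD7, EZH2 and KDM4B are lowest with olaparib, and KMT2A is highest with veliparib.

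SWI/SNF complexes carry 1 of 2 ATPases and alternative subunits that define the canonical, PBAF and non-canonical forms. SMARCA4 (BRG1) was at 214 and 210.4 CPM with UPF1069, 177 and 182 with olaparib and 208 and 230.2 with veliparib, against 218 and 216 with DMSO. It fell with olaparib (-0.27, adjusted p = 1.34e-05), and the other compounds did not pass. SMARCA2 (BRM) was at 59.5 and 58.4 CPM with UPF1069, 64.3 and 65.2 with olaparib and 71.1 and 70.3 with veliparib, against 64.1 and 63.5 with DMSO. Its veliparib increase (0.14) was lost without DMSO replicate 1 (adjusted p = 0.0636) or 2 (0.0823), and turned to -0.01 after GC and length correction (adjusted p = 0.859). In the siRNA table SMARCA4 was at 45.7 and 53.8 normalised reads with siPARP1_A, 48.7 and 45.2 with siPARP1_B, 47.9 and 34.5 with siPARP2_A and 34.7 and 31.2 with siPARP2_B, against 33.4 and 46.2 with siNC. Its 2 siNC libraries were far apart, and the siPARP1_A increase (0.33) was lost without siNC replicate 1 (adjusted p = 0.576), without siPARP1_A replicate 2 (0.275) and in DESeq2 (0.223). SMARCA2 was at 50.3 and 46.8 normalised reads with siPARP1_A, 42.2 and 45.5 with siPARP1_B, 31.3 and 29.95 with siPARP2_A and 36.996 and 36.1 with siPARP2_B, against 38.1 and 38.8 with siNC. It rose with siPARP1_A (0.33) and fell with siPARP2_A (-0.32), and neither group overlapped siNC.

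The SMARCD subunits (BAF60a, b and c) replace one another in the complex. SMARCD3 was at 17.6 and 17.97 CPM with UPF1069, 25.5 and 26.8 with olaparib and 12.2 and 12.7 with veliparib, against 15.1 and 13.8 with DMSO. Olaparib gave the largest increase of any member with a compound (0.81, SE 0.0691, adjusted p = 1.52e-09), with both libraries far above the others. SMARCD3 also rose with UPF1069 (0.28; adjusted p = 0.104 without DMSO replicate 2 and 0.0626 without UPF1069 replicate 2). The lower value with veliparib (-0.20) lost its call in 8 alternatives, among them GC and length correction (-0.12, adjusted p = 0.182) and leaving out DMSO replicate 1 (0.258) or veliparib replicate 1 (0.0606). Per kb, SMARCD3 made up 10.6 and 10.8% of the SMARCD signal with olaparib, against 5.51 and 5.05% with DMSO. SMARCD1 was at 16.4 and 16.1 normalised reads with siPARP1_A, 15.4 and 16.4 with siPARP1_B, 9.42 and 10.6 with siPARP2_A and 29.7 and 35.6 with siPARP2_B, against 20.3 and 22.6 with siNC. The siPARP2 sequences moved it in opposite directions, -1.03 (SE 0.10, adjusted p = 1.32e-08) with siPARP2_A and 0.58 (SE 0.10, adjusted p = 2.75e-05) with siPARP2_B, and neither overlapped siNC. It also fell with siPARP1_A (-0.38; adjusted p = 0.0524 without siNC replicate 2) and siPARP1_B (-0.41). SMARCD2, the most abundant of the 3, was lower with olaparib (-0.27), siPARP1_A (-0.24) and veliparib (-0.28; -0.10 after correction). Its smaller calls with UPF1069 (-0.14), siPARP1_B (-0.16), siPARP2_A (-0.14) and siPARP2_B (-0.15) were each lost without 1 library: for UPF1069 without any 1 of the 4 libraries (adjusted p = 0.0658 to 0.1), for siPARP1_B without siNC replicate 2 (0.107) or either siPARP1_B library (0.0687 and 0.0985), for siPARP2_A without siNC replicate 2 (0.157) or siPARP2_A replicate 1 (0.286), and for siPARP2_B without siNC replicate 2 (0.088) or either siPARP2_B library (0.0694 and 0.0508).

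ARID1A and ARID1B are the DNA-binding subunits of canonical SWI/SNF, and ARID2 that of PBAF. ARID1A was at 62.7 and 60.1 CPM with UPF1069, 53.02 and 54.9 with olaparib and 60.1 and 65.1 with veliparib, against 65.9 and 66.3 with DMSO, and it fell with olaparib (-0.29), whose libraries lay below all others. With siRNAs ARID1A was at 7.32 and 7.52 normalised reads with siPARP1_A, 7.99 and 6.36 with siPARP1_B, 6.42 and 4.69 with siPARP2_A and 5.95 and 6.03 with siPARP2_B, against 7.66 and 8.61 with siNC. It was lower with siPARP2_A (-0.49) and siPARP2_B (-0.38), but without siNC replicate 2 neither passed (adjusted p = 0.0662 for siPARP2_A and 0.136 for siPARP2_B), nor did they without siPARP2_A replicate 2 (0.154) or siPARP2_B replicate 1 (0.0611) or 2 (0.0503). ARID2 was at 69.2 and 71.96 CPM with UPF1069, 106 and 112 with olaparib and 89.2 and 87.4 with veliparib, against 76.4 and 74.7 with DMSO. It rose with olaparib (0.52, SE 0.0441, adjusted p = 1.51e-09) and veliparib (0.22; 0.02 and no longer called after correction, adjusted p = 0.706). With siRNAs ARID2 was at 65.6 and 63.6 normalised reads with siPARP1_A, 80.9 and 88.4 with siPARP1_B, 82.5 and 81.4 with siPARP2_A and 54.4 and 51.5 with siPARP2_B, against 101 and 95.04 with siNC, below siNC in every knockdown library. All 4 decreases passed, with siPARP2_B the largest (-0.88, SE 0.0660, adjusted p = 1.55e-11), although that of siPARP1_B (-0.21) was lost without siNC replicate 1 (adjusted p = 0.107), without siPARP1_B replicate 1 (0.158) and in DESeq2 (0.0643).

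Of the core subunits, SMARCC1 (BAF155) was at 85.6 and 83.96 normalised reads with siPARP1_A, 103 and 103 with siPARP1_B, 107 and 104 with siPARP2_A and 103 and 106 with siPARP2_B, against 128 and 129 with siNC. All knockdown libraries lay below siNC and all 4 decreases passed, with siPARP1_A the largest (-0.60, SE 0.0579, adjusted p = 3.99e-09). ARID1B with UPF1069 was at 55.9 and 51.5 CPM against 60.7 and 57.8 with DMSO; its call (-0.14, adjusted p = 0.0474) was lost in 8 of 13 alternatives, among them without DMSO replicate 1 (0.332), DMSO replicate 2 (0.0863) or UPF1069 replicate 2 (0.459). Of all 12 SWI/SNF subunits other than the ATPases, 0 rose and 5 fell with siPARP1_A, 0 rose and 6 fell with siPARP1_B, 2 rose and 7 fell with siPARP2_A and 2 rose and 6 fell with siPARP2_B, where 28.9, 23.9, 24.9 and 35.2% of all genes fell.

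CHD3 and CHD4 are the ATPases of the NuRD complex. CHD3 was at 87.9 and 89.1 normalised reads with siPARP1_A, 123 and 109 with siPARP1_B, 70.3 and 51.5 with siPARP2_A and 47.5 and 49.2 with siPARP2_B, against 102 and 124 with siNC. It fell with siPARP2_A (-0.89, SE 0.10, adjusted p = 7.73e-08) and siPARP2_B (-1.20, SE 0.10, adjusted p = 1.14e-10), whose libraries lay below all others. The siPARP1_A call (-0.34) was lost without siNC replicate 2 (adjusted p = 0.167) and in DESeq2 (0.108). CHD4 did not pass with either siPARP2 sequence (-0.03 with siPARP2_A, 0.04 with siPARP2_B). CHD6 was at 51.9 and 41.4 normalised reads with siPARP1_A, 72.6 and 82.2 with siPARP1_B, 43.3 and 40.3 with siPARP2_A and 28.01 and 28.7 with siPARP2_B, against 72.8 and 79.8 with siNC. The siPARP1_B libraries overlapped siNC, while CHD6 fell with siPARP1_A (-0.71, SE 0.0882, adjusted p = 2.66e-07), siPARP2_A (-0.85, SE 0.0882, adjusted p = 1.95e-08) and siPARP2_B (-1.40, SE 0.0882, adjusted p = 5.46e-13). With compounds CHD6 was at 82.6 and 83.2 CPM with UPF1069, 99.5 and 100.3 with olaparib and 97.7 and 97.6 with veliparib, against 78.7 and 79.4 with DMSO. It rose with olaparib (0.33) and veliparib (0.30; 0.15 after correction), and the UPF1069 libraries, above DMSO by 0.07, did not pass.

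CHD1, a remodeler at transcribed genes that is deleted in a share of prostate tumours, was at 37.6 and 34.4 CPM with UPF1069, 37.1 and 37.9 with olaparib and 53.6 and 48.3 with veliparib, against 38.9 and 38.6 with DMSO. Veliparib was above the rest (0.38; 0.18 after correction). After knockdown CHD1 was at 49.3 and 48.9 normalised reads with siPARP1_A, 38.2 and 46.4 with siPARP1_B, 51.4 and 48.5 with siPARP2_A and 66.9 and 63.3 with siPARP2_B, against 49.1 and 46.6 with siNC. The siPARP2_B libraries were highest (0.44), and the other siRNAs did not pass. CHD1L, the remodeler that binds poly(ADP-ribose), was at 73.2 and 70.7 normalised reads with siPARP1_A, 69.9 and 69.5 with siPARP1_B, 68.2 and 68.8 with siPARP2_A and 63.8 and 58.7 with siPARP2_B, against 77.5 and 84.6 with siNC. All 4 differences passed, at -0.17 with siPARP1_A, -0.21 with siPARP1_B, -0.24 with siPARP2_A and -0.40 with siPARP2_B. Without siNC replicate 2, siPARP1_A (adjusted p = 0.27), siPARP1_B (0.143) and siPARP2_A (0.074) no longer passed, and the first pair was also lost without either of its own libraries (0.0511 to 0.175) and in DESeq2. With compounds CHD1L was at 66.5 and 66.6 CPM with UPF1069, 68.5 and 74.1 with olaparib and 74.2 and 69.9 with veliparib, against 62.9998 and 62.97 with DMSO, higher with olaparib (0.18; adjusted p = 0.108 without olaparib replicate 2) and veliparib (0.19).

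CHD7, mutated in CHARGE syndrome, was at 18.7 and 18.2 CPM with UPF1069, 12.6 and 12.1 with olaparib and 22.9 and 23.7 with veliparib, against 19.1 and 17.4 with DMSO. The olaparib libraries were lowest (-0.53, SE 0.0679, adjusted p = 8.87e-07), while veliparib was above DMSO (0.34; 0.18 after correction). CHD9 was at 64.95 and 60.4 CPM with veliparib, against 48.6 and 45.9 with DMSO (0.40; 0.14 after correction). SMARCA5, the main ISWI ATPase, was at 80.7 and 82.4 CPM with UPF1069, 87.8 and 88.5 with olaparib and 116 and 106 with veliparib, against 93.8 and 96.6 with DMSO. It was lower with UPF1069 (-0.22). The olaparib call (-0.11) was lost without any 1 of the 4 libraries compared (adjusted p = 0.0896 to 0.252), and the higher value with veliparib (0.22) became 0.02 after correction (adjusted p = 0.709). With siRNAs SMARCA5 was at 171 and 161 normalised reads with siPARP1_A, 152 and 158 with siPARP1_B, 140.4 and 136 with siPARP2_A and 178 and 174 with siPARP2_B, against 140.4 and 133 with siNC. It rose with siPARP1_A (0.28) and siPARP2_B (0.36), while the siPARP1_B call (0.18) was lost without siNC replicate 2 (adjusted p = 0.0983) or siPARP1_B replicate 2 (0.107). SMARCAL1, which remodels stalled replication forks, was at 17.6 and 17.01 normalised reads with siPARP2_A and 15.2 and 16.004 with siPARP2_B, against 24.3 and 24.6 with siNC. Both decreases passed (-0.47 with siPARP2_A, -0.62 with siPARP2_B). With siPARP1_B, SMARCAL1 was called higher than with siNC. Of the 8 members that rose with siPARP1_B, 2 passed under every alternative.

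The bromodomain proteins BRD2 and BRD3 bind acetylated histones at active promoters and enhancers. BRD2 was at 90.8 and 88.5 normalised reads with siPARP1_A, 129 and 131 with siPARP1_B, 123 and 115 with siPARP2_A and 106 and 103 with siPARP2_B, against 157 and 166 with siNC. All knockdown libraries lay below siNC, and all 4 decreases passed, with siPARP1_A the largest (-0.84, SE 0.0594, adjusted p = 1.05e-11). BRD3 was at 40.99 and 40.1 normalised reads with siPARP1_A, 52.5 and 56.8 with siPARP1_B, 39.8 and 43.02 with siPARP2_A and 28.4 and 27.7 with siPARP2_B, against 56.9 and 62.99 with siNC. It fell with siPARP2_B (-1.07, SE 0.0761, adjusted p = 5.78e-12), siPARP1_A (-0.55) and siPARP2_A (-0.52).

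BRD8, a subunit of the TIP60 acetyltransferase complex, was at 63.3 and 63.98 CPM with UPF1069, 68.7 and 71.03 with olaparib and 78.6 and 82.8 with veliparib, against 73.3 and 77.4 with DMSO, and fell with UPF1069 (-0.24). With siPARP2_B BRD8 was at 59.6 and 56.4 normalised reads against 39.6 and 41.9 with siNC (0.50).

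**Figure D3:**
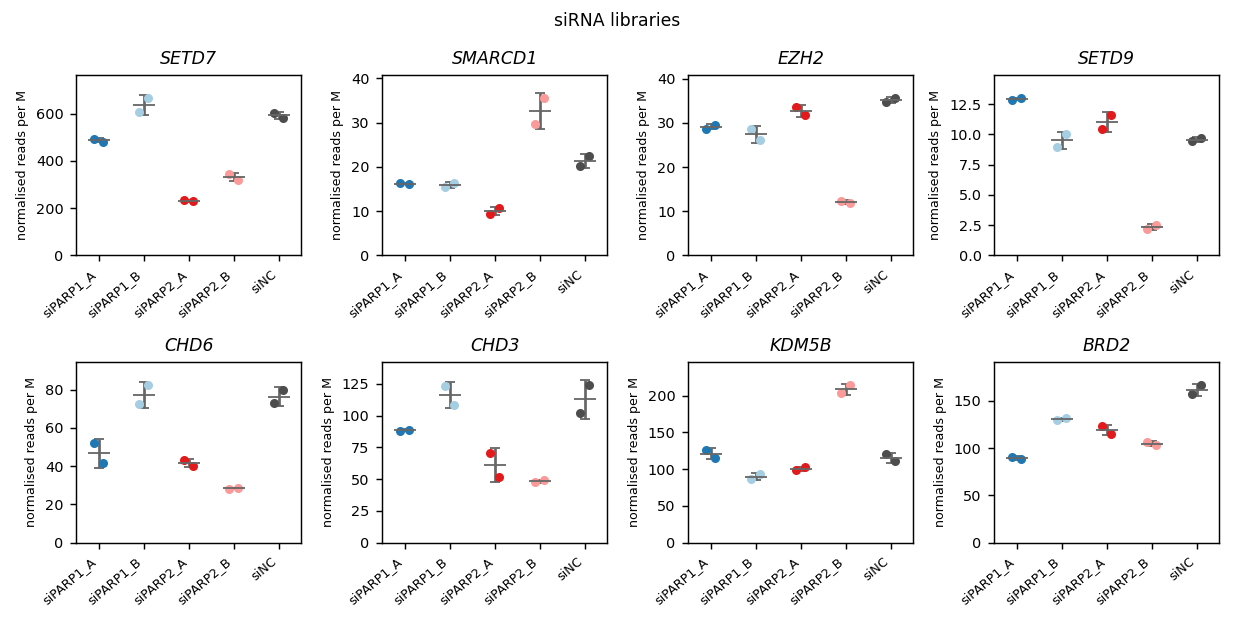
Normalised reads per M of 8 members in each siRNA library (points), with the mean and SD of the 2 libraries of a group (grey bars), for siPARP1_A, siPARP1_B, siPARP2_A, siPARP2_B and siNC from left to right. SETD7 and CHD3 are lowest with both siPARP2 sequences, SMARCD1 lies on opposite sides of siNC with siPARP2_A and siPARP2_B, and EZH2, SETD9 and KDM5B stand apart with siPARP2_B.

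The sequences against the same target gave different values for many members. Between siPARP2_A and siPARP2_B, 18 members were higher and 25 lower with siPARP2_A (all genes, 34.3% higher and 30.6% lower). The counts were 22 higher and 22 lower after GC and length correction, 11 higher and 26 lower without siPARP2_A replicate 1 and 15 higher and 14 lower without siPARP2_A replicate 2. The largest differences were 1.84 (SE 0.12, adjusted p = 1.41e-12) for SETD9, -1.61 (SE 0.10, adjusted p = 9.38e-13) for SMARCD1, 1.36 (SE 0.0851, adjusted p = 4.92e-13) for EZH2 and -1.05 (SE 0.0645, adjusted p = 3.52e-13) for KDM5B. All 18 proliferation markers were higher with siPARP2_A than with siPARP2_B (median difference 2.04), and PARP1 was at 409 and 395 normalised reads with siPARP2_A and 160.5 and 145 with siPARP2_B. Between siPARP1_A and siPARP1_B, 7 members were higher and 26 lower with siPARP1_A (all genes, 28.4% higher and 26.5% lower), with 4 higher and 24 lower without siPARP1_A replicate 1 and 11 higher and 27 lower after GC and length correction. There KDM3B differed by -0.87 (SE 0.0819, adjusted p = 2.28e-09), KDM7A by -0.57 and CHD6 by -0.72.

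When the mean of both siPARP2 sequences was set against the mean of both siPARP1 sequences, 16 members were higher and 27 lower (all genes, 33.3% higher and 32.2% lower). SETD7 was lower with siPARP2 (-1.01, SE 0.0402, adjusted p = 1.17e-16), as were CHD3 (-0.90, SE 0.0708, adjusted p = 5.22e-11) and SMARCAL1 (-0.75, SE 0.0623, adjusted p = 1.30e-10), and for these 3 all siPARP2 libraries lay below all siPARP1 libraries. The SMARCAL1 difference is not a siPARP2 decrease alone, since SMARCAL1 was also called higher with siPARP1_B than with siNC. EZH1 was higher (0.65, SE 0.0822, adjusted p = 2.13e-07) and SETD9 lower (-0.93, SE 0.0858, adjusted p = 9.56e-10), with SETD9 low in the siPARP2_B libraries alone. Against siNC, EZH1 was called only with siPARP1_A, where it fell, and with siPARP2_B, where it rose. Its difference is therefore not shared by the sequences against each target.

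Changes with veliparib were read against the GC content of each gene's longest transcript, which was 36.0 to 66.1% among members (median 48.6%) and had a median of 48.1% over all genes. Over the 69 members, Spearman's rho between GC content and the veliparib log2 fold change was -0.67, and over 13075 genes it was -0.69; these are descriptions across genes of the same 4 libraries. Below 45% GC, 14 of 20 members rose and 0 fell, where 33.8% of all genes in that range rose. Between 45 and 55%, 10 of 34 rose and 4 fell, with 11.98% of all genes rising and 14.1% falling. At 55% or more, 1 of 15 rose and 9 fell, where 62.8% of all genes fell. In single libraries against the DMSO mean, rho over all genes was -0.758 and -0.527 for the 2 veliparib libraries. For those of UPF1069 and olaparib it was between -0.13 and 0.11. Over members, rho was -0.77 and -0.52 with veliparib, -0.34 and -0.41 with olaparib, and 0.07 and -0.13 with UPF1069. At 55% GC or more, 9 of 15 members fell with olaparib, where 31.4% of all genes in that range fell. After GC and length correction 9 of 15 still fell, where 29.3% of all genes did. Genes of at least 55% GC made up 23.1 and 24.4% of the signal with veliparib, and 26.9 to 27.9% in the other inhibitor libraries.

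A smooth fit on GC content and length, removed from each library, left 16 members up and 9 down with veliparib (all genes, 7.4% rose and 16.9% fell), and rho over members was then -0.07. Of the 25 members that rose as deposited, 12 rose after correction, and of the 13 that fell, 5 fell. A further 4 rose and 4 fell only after correction. KMT2A (0.29), KMT2D (0.24, against 0.25 as deposited, where it was lost without DMSO replicate 2 at an adjusted p of 0.0825), SETD2 (0.21), CHD7 (0.18) and CHD1 (0.18) were among those that rose in both. SMARCA4 rose only after correction (0.21, adjusted p = 5.82e-06; 0.01 as deposited), and EZH2 fell only after correction (-0.23, adjusted p = 0.00087). KMT5C, at 66.1% GC, was at 8.003 and 8.45 CPM with veliparib against 10.7 and 10.9 with DMSO, and its change of -0.36 became 0.01 (adjusted p = 0.957). A GC-dependent difference made by the treatment and one made in library preparation cannot be told apart here.

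**Figure D4:**
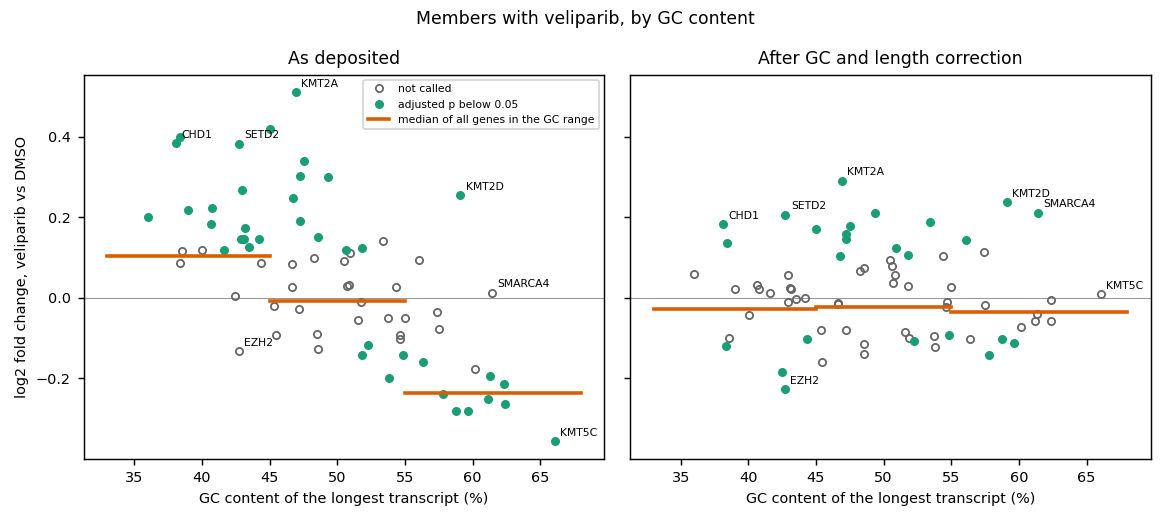
Log2 fold change of the 69 members with veliparib against DMSO (y axis) by GC content of the longest transcript (x axis), as deposited (left) and after GC and length correction (right). Filled points passed an adjusted p of 0.05, and orange lines are medians of all genes in 3 GC ranges. As deposited, members of low GC lie mostly above 0 and those of high GC below it, and after correction the slope is flat.

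The compounds differed from one another at the same dose and time, in 3 pairs. Between olaparib and veliparib 13 members were higher and 29 lower with olaparib (all genes, 31.7% higher and 27.7% lower). The largest differences were 1.01 (SE 0.0691, adjusted p = 3.06e-11) for SMARCD3 and -0.87 (SE 0.0679, adjusted p = 3.10e-10) for CHD7, with KMT2A at -0.51 and EZH2 at -0.35. Between UPF1069 and olaparib 16 were higher and 22 lower with UPF1069 (all genes, 24.2% higher and 27.0% lower). Without UPF1069 replicate 1 the counts were 11 higher and 14 lower, without olaparib replicate 1 8 higher and 17 lower, and without olaparib replicate 2 or in DESeq2 14 higher and 14 lower. ARID2 differed by -0.62 (SE 0.0441, adjusted p = 1.04e-10), CHD7 by 0.55 (SE 0.0679, adjusted p = 6.35e-07) and KDM6A by -0.49 (SE 0.0365, adjusted p = 2.41e-10). KMT5A did not pass between them (-0.01, 95% interval -0.10 to 0.09). Between UPF1069 and veliparib 7 were higher and 30 lower with UPF1069 (all genes, 25.9% higher and 24.9% lower; 11 higher and 32 lower without veliparib replicate 2), with KMT2A at -0.37 and CHD1 at -0.49; these carry the same GC dependence.

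The controls of the 2 tables differed most in GC-rich members, and this bears on any level set across the tables, which were normalised apart. KMT2D averaged 2.42 normalised reads with siNC and 39.7 CPM with DMSO, KDM6B 3.73 with siNC and 50.8 with DMSO, and ARID1A 8.14 with siNC and 66.1 with DMSO. Over the 69 members the log2 difference between siNC and DMSO had a rho of -0.72 with GC content, and over 13171 genes it was -0.58. Genes of at least 55% GC made up 16.3 to 18.2% of the signal in the siRNA libraries. The siNC libraries also differed between themselves along GC content (rho -0.41 over all genes), as did the veliparib libraries (rho -0.51). In the other groups this rho lay between -0.28 and 0.26. A per-gene chi-square comparing duplicates is near 1 if counting is the sole noise. It stood at 8.08 for siNC, 6.38 for veliparib, 6.35 for siPARP2_B and 1.31 to 3.97 for the other groups.

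**Figure D5:**
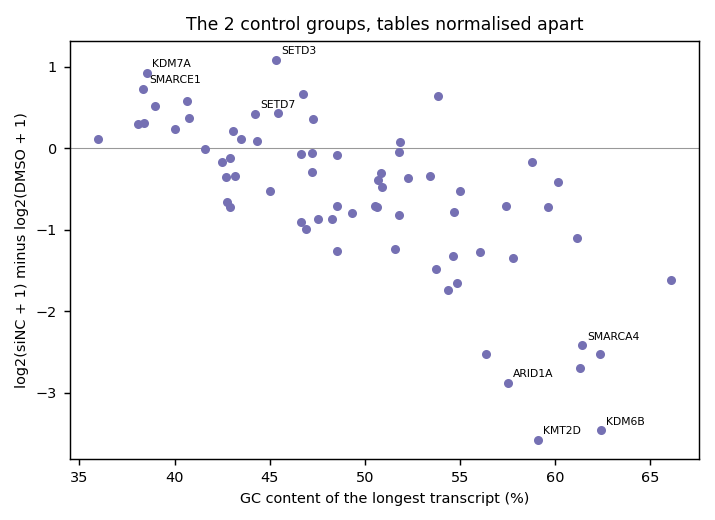
Difference of mean log2(value + 1) between siNC and DMSO (y axis) by GC content of the longest transcript (x axis) for the 69 members tested in the inhibitor table. The values come from tables normalised apart and are not tested; KMT2D, KDM6B and ARID1A lie lowest.

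Partner proteins that are not members gave mixed counts, to be read against all genes tested, of which 10.3% rose and 14.0% fell with UPF1069, 25.8 and 26.8% with olaparib, 17.2 and 23.2% with veliparib, 25.5 and 28.9% with siPARP1_A, 16.4 and 23.9% with siPARP1_B, 24.5 and 24.9% with siPARP2_A, and 30.9 and 35.2% with siPARP2_B. Among 9 PRC2 partners of EZH1 and EZH2, the numbers that rose and fell were 1 and 0 with UPF1069, 2 and 2 with olaparib and 3 and 1 with veliparib, and 2 and 6 with siPARP1_A, 2 and 3 with siPARP1_B, 3 and 2 with siPARP2_A and 3 and 2 with siPARP2_B. The histone-binding subunit RBBP4 changed by -0.60 with siPARP1_A, -1.04 with siPARP1_B and -1.28 with siPARP2_B, and the siPARP2 sequences differed for it by 1.28 (A minus B). JARID2, which helps PRC2 bind chromatin, changed by -0.57 with siPARP1_A and -0.77 with siPARP2_A but by 0.32 with siPARP2_B, and the siPARP1 sequences differed for it by -0.78 (A minus B).

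For 10 COMPASS partners of the KMT2 enzymes, those that rose and fell numbered 0 and 5 with UPF1069, 2 and 6 with olaparib and 0 and 5 with veliparib, and 2 and 1 with siPARP1_A, 0 and 4 with siPARP1_B, 1 and 3 with siPARP2_A and 1 and 3 with siPARP2_B. WDR5, a core COMPASS subunit, changed by -0.23 with UPF1069, -0.46 with olaparib and -0.24 with siPARP1_B, and by 0.18 with siPARP1_A. Of 12 SWI/SNF partners, the numbers up and down were 2 and 1 with UPF1069, 3 and 2 with olaparib and 1 and 4 with veliparib, and of the 11 tested with siRNAs 1 and 5 with siPARP1_A, 0 and 3 with siPARP1_B, 1 and 2 with siPARP2_A and 1 and 6 with siPARP2_B. Likewise for 10 NuRD partners of CHD3 and CHD4 they were 0 and 4 with UPF1069, 0 and 6 with olaparib and 0 and 5 with veliparib, and 1 and 4 with siPARP1_A, 1 and 3 with siPARP1_B, 0 and 2 with siPARP2_A and 1 and 3 with siPARP2_B. MTA2, a NuRD subunit, changed by -0.36 with olaparib and -0.15 with siPARP1_B.

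The group listed under ISWI, INO80 and SRCAP held 18 genes, among them other remodelers such as HELLS, ATRX and SHPRH. Its numbers up and down were 1 and 7 with UPF1069, 3 and 13 with olaparib and 10 and 2 with veliparib. Of the 17 tested with siRNAs they were 4 and 3 with siPARP1_A, 4 and 3 with siPARP1_B, 8 and 4 with siPARP2_A and 7 and 6 with siPARP2_B. HELLS, a remodeler needed for DNA methylation, changed by -0.79 with olaparib, -0.38 with siPARP1_A and -1.88 with siPARP2_B. BAZ1A, a partner of SMARCA5, changed by 0.90 with siPARP1_B and 0.87 with siPARP2_A, and siPARP2_A and siPARP2_B differed by 1.97 for HELLS and 0.83 for BAZ1A. In the set of 17 other histone methyltransferases the numbers up and down were 1 and 7 with UPF1069, 3 and 12 with olaparib and 3 and 6 with veliparib, and 4 and 3 with siPARP1_A, 4 and 2 with siPARP1_B, 4 and 3 with siPARP2_A and 0 and 8 with siPARP2_B. SUV39H1, an enzyme of H3K9 trimethylation, changed by -0.24 with UPF1069 and -0.74 with olaparib, and WHSC1 (NSD2), which writes H3K36 dimethylation, by -0.19 with UPF1069, -0.52 with olaparib and -1.22 with siPARP2_B. The 5 other JmjC proteins gave numbers up and down of 0 and 3 with UPF1069, 1 and 2 with olaparib and 1 and 0 with veliparib, and 2 and 1 with siPARP1_A, 0 and 1 with siPARP1_B, 1 and 2 with siPARP2_A and 2 and 3 with siPARP2_B. Among them PHF8, a demethylase of H3K9 and H4K20, changed by -0.17 with UPF1069, -0.62 with olaparib, -0.36 with siPARP1_A and -0.56 with siPARP2_A, and by 0.21 with siPARP2_B.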

How the data were processed

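Expression was measured in 18 LNCaP libraries, 2 per group in 9 groups taken from the labels. The inhibitor table holds counts per M reads (CPM) and the siRNA table a normalised signal per M reads, both as deposited by the authors; whole reads were recovered for 100% of values within a tolerance of 0.01. Per the submitters' processing notes, the build was hg19 and the tools were edgeR 3.12.0, HTSeq 0.6.1, TopHat2 2.1.0 and bcl2fastq 2.18, with no roles stated. Counting with or without strand is not given in the sources used here.

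Since the values are not counts, limma 3.58.1 (trend, R 4.3.3) was run on log2(value + 1) for genes averaging 1 or more over a table (13337 genes with compounds, 12701 with siRNAs), with all groups of a table in 1 fit, 4 and 5 residual degrees of freedom, and 2-sided p-values adjusted by Benjamini-Hochberg over all genes. The design had been written with this test. Median standard errors against a control were 0.0617 and 0.0939 (log2). Alternatives were a pseudocount of 0.25, no filter, edgeR 4.0.16 (quasi-likelihood, TMM or RLE) and DESeq2 1.42.0 on recovered reads, a replicate block, only the groups compared, a spline correction for GC content and transcript length (5 degrees of freedom each), and leaving out each library. GC content and length came from the longest GENCODE 29 transcript and were found for 98.0% and 98.2% of genes tested. The script was tested on simulated data. Depth sets a floor of 3 reads at 0.0841 to 0.113 CPM and 0.169 to 0.207 normalised reads, for counting error only.

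The members, families, partner lists and the 12 genes always shown were chosen with earlier results of these data known. Values in every library were given for up to 8 called members per comparison with a control, those with the largest absolute log2 fold change, an average log2 value no lower than 1 and groups that do not overlap, and for those 12 genes. Other members were named where their family was described. The values of 1 of those 12 genes are not reported here; it is kept in all counts.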

Additional observations from a re-analysis of the deposited data

How the results depend on the processing

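Counts of members called kept within 1.5 times of the values reported in all 13 comparisons under a pseudocount of 0.25, no filter on low values and edgeR with TMM or RLE, although the split into higher and lower calls moved for UPF1069 and siPARP1_B, as given beside those counts. For UPF1069 against DMSO, 13 members were called; DESeq2 called 8, a fit of only the groups compared 27, GC and length correction 25, the same correction with a replicate block 27, and fits without 1 library 6 to 7. For veliparib against DMSO, 38 were called, against 25 with GC and length correction, with or without a replicate block, and 26 to 44 without 1 library. For UPF1069 against olaparib the 38 calls became 25 to 28 without 1 library. For siPARP1_B against siNC the 21 calls became 13 in DESeq2 and 14 to 18 without 1 library. The ranges without 1 library were 30 to 31 for olaparib, 31 to 35 for siPARP1_A, 30 to 37 for siPARP2_A and 33 to 39 for siPARP2_B against their controls. A fit that leaves a group with 1 library assumes that it varies like the other groups. The cause of these shifts was not tested, beyond fewer libraries in the last case.

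With GC and length correction, with or without a replicate block, veliparib values changed sign for KMT5C (0.0078), SETD7 (-0.00055), KDM6A (-0.0034) and SMARCA2 (-0.012), none called after it. The same correction turned the sign, with the call lost, of SMARCA2 between olaparib and veliparib (0.02) and of KDM7A (0.07), SMARCB1 (-0.03), SMARCD2 (-0.04) and KDM4B (-0.02) between UPF1069 and veliparib. Same-numbered libraries of different groups had deviations that correlated at -0.14 to 0.11. This cannot exclude a pairing, since each group holds only 2 libraries. The replicate block gave 10 members called for UPF1069, 34 for olaparib, 37 for veliparib, 42 for siPARP1_A, 21 for siPARP1_B, 40 for siPARP2_A and 40 for siPARP2_B. Of the 467 calls of members over all 13 comparisons, 281 passed under every alternative. With 2 libraries per group, small differences can be missed, and a difference that did not pass is not shown to be absent.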
